A study of Mus musculus with 18 samples.

Results

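The mitochondrial import and carrier genes were taken as every gene of the TPM table whose symbol begins with *Timm*, *Tomm* or *Slc25a* followed by a digit, or is *Mtch1* or *Mtch2*, and pseudogenes marked by the ending -ps were left out. This gave 73 genes of the 28252 in the TPM table and the 53715 in the count table, of which 72 are protein coding and 1, *Tomm6os*, is an antisense RNA. They were followed in oocytes of F1 mice of the C57Bl/6j × CBA/J cross at 3 stages, in primordial follicles, in primary follicles and after ovulation in metaphase II (MII), each grown *in vivo* or *in vitro*, with 3 libraries in each of the 6 groups. The *in vivo* oocytes of primordial and primary follicles came from ovaries of 14-day-old females that were never cultured, and their *in vitro* counterparts from ovaries taken at 7 days of age and kept for 7 days in α-MEM with 10% fetal bovine serum. That medium also held recombinant FSH and insulin, transferrin and selenium. The *in vivo* MII oocytes came from superovulated adult females, and the *in vitro* MII oocytes from follicles of such cultured ovaries that were grown for 12 days more before ovulation was induced with hCG. These follicles were encapsulated in alginate and their medium held recombinant FSH. Ovaries for the primordial and primary stages were fixed in paraformaldehyde and embedded in paraffin, and oocytes were excised from their sections by laser capture microdissection (LCM). Their RNA was amplified and captured with exome probes, and the captured material of a stage was pooled. At both stages more oocytes were excised from cultured than from *in vivo* ovaries, with the wider gap for primary follicles. MII libraries were made from 10 oocytes each by Smart-seq II, so that between MII and LCM oocytes the stage and the library preparation cannot be told apart and no test compared them.

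Nearly all mitochondrial proteins are encoded in the nucleus and must cross the mitochondrial membranes after synthesis. The TOM complex is the entry gate of the outer membrane, the TIM23 complex passes proteins with a presequence on to the matrix and inner membrane, and the small TIM chaperones hand the hydrophobic carriers to the TIM22 complex, which inserts them in the inner membrane. The Slc25a carriers are the main clients of that last route, and they exchange ADP for ATP and move phosphate, carboxylates, amino acids, cofactors and metal ions across the inner membrane. The mature oocyte holds a very large number of mitochondria, all of which the embryo inherits, and makes its ATP largely by oxidative phosphorylation.

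In MII oocytes the genes formed a stable set, with 42 of the 73, or 57.5%, above 3 counts in all 6 libraries, beside 36.6% of the genes of the TPM table. By mean TPM *Timm8b* and then *Timm23* led in both MII groups. In the 12 LCM libraries only *Slc25a23*, *Slc25a28* and *Slc25a39* were above 3 counts in every library, or 4.11% beside 6.61%. Many genes were high in 1 library of an LCM group and at or under 3 counts in another. By group this held for 32.1% to 67.6% of those above 100 counts in a library, beside 29.0% to 60.1% of all genes. Between the growth conditions edgeR called none of the 68 genes tested in LCM and the 64 tested in MII oocytes, those with at least 10 counts in total. DESeq2 called 4 of 43, 2 of 41 and 2 of 58 genes at the primordial, primary and MII stages. These stand beside 9.3%, 3.11% and 2.54% of all genes. The smallest unadjusted edgeR p in MII oocytes belonged to *Slc25a10* and *Mtch1*, which were at 0 counts in all 3 *in vivo* libraries and present in all 3 *in vitro* libraries, at low levels.

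Total counts were 15149564 to 29205503 in LCM libraries and 7334817 to 9978830 in MII libraries. A gene was taken as detected above 3 counts, the floor used throughout. The summed TPM of 12 oocyte markers was 325 to 1949 in LCM libraries and 10431 to 21014 in MII libraries. Granulosa markers summed to 58.8 to 2538 TPM in LCM libraries and to more than the oocyte markers in 8 of the 12, and theca and stroma markers, which reached 29933 TPM in replicate 2 of the *in vivo* primary group, did so in 9 of the 12. Of the 12 oocyte markers 10 were above 3 counts in all *in vivo* primordial libraries, and *Bmp15* and *Oosp1* were at or under 3 counts in all of them. Blood markers summed to 1157 to 7508 TPM in the *in vivo* primary libraries and to at most 174 TPM in the *in vitro* primary libraries. In MII libraries granulosa markers summed to 27.5 to 72.7 TPM *in vivo* and 25.1 to 55.0 TPM *in vitro*, with *Amh*, *Amhr2*, *Foxl2*, *Wt1* and *Fst* at or under 3 counts in all 6. *Inhba* in MII libraries had 0, 0 and 0 counts *in vivo* and 23, 15 and 51 counts *in vitro* (edgeR adjusted p = 0.153, DESeq2 adjusted p = 0.00442), and *Inha* had 0, 0 and 0 and 14, 14 and 0 counts (edgeR adjusted p = 0.471). The part of these cell types in the results on the import and carrier genes was not tested. In such bulk samples fewer cells of a type and less RNA per cell cannot be told apart. Nothing states that the 3 libraries of a group came from separate animals or cultures, so p-values measure only the spread between libraries, which may be technical.

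**Figure D1:**
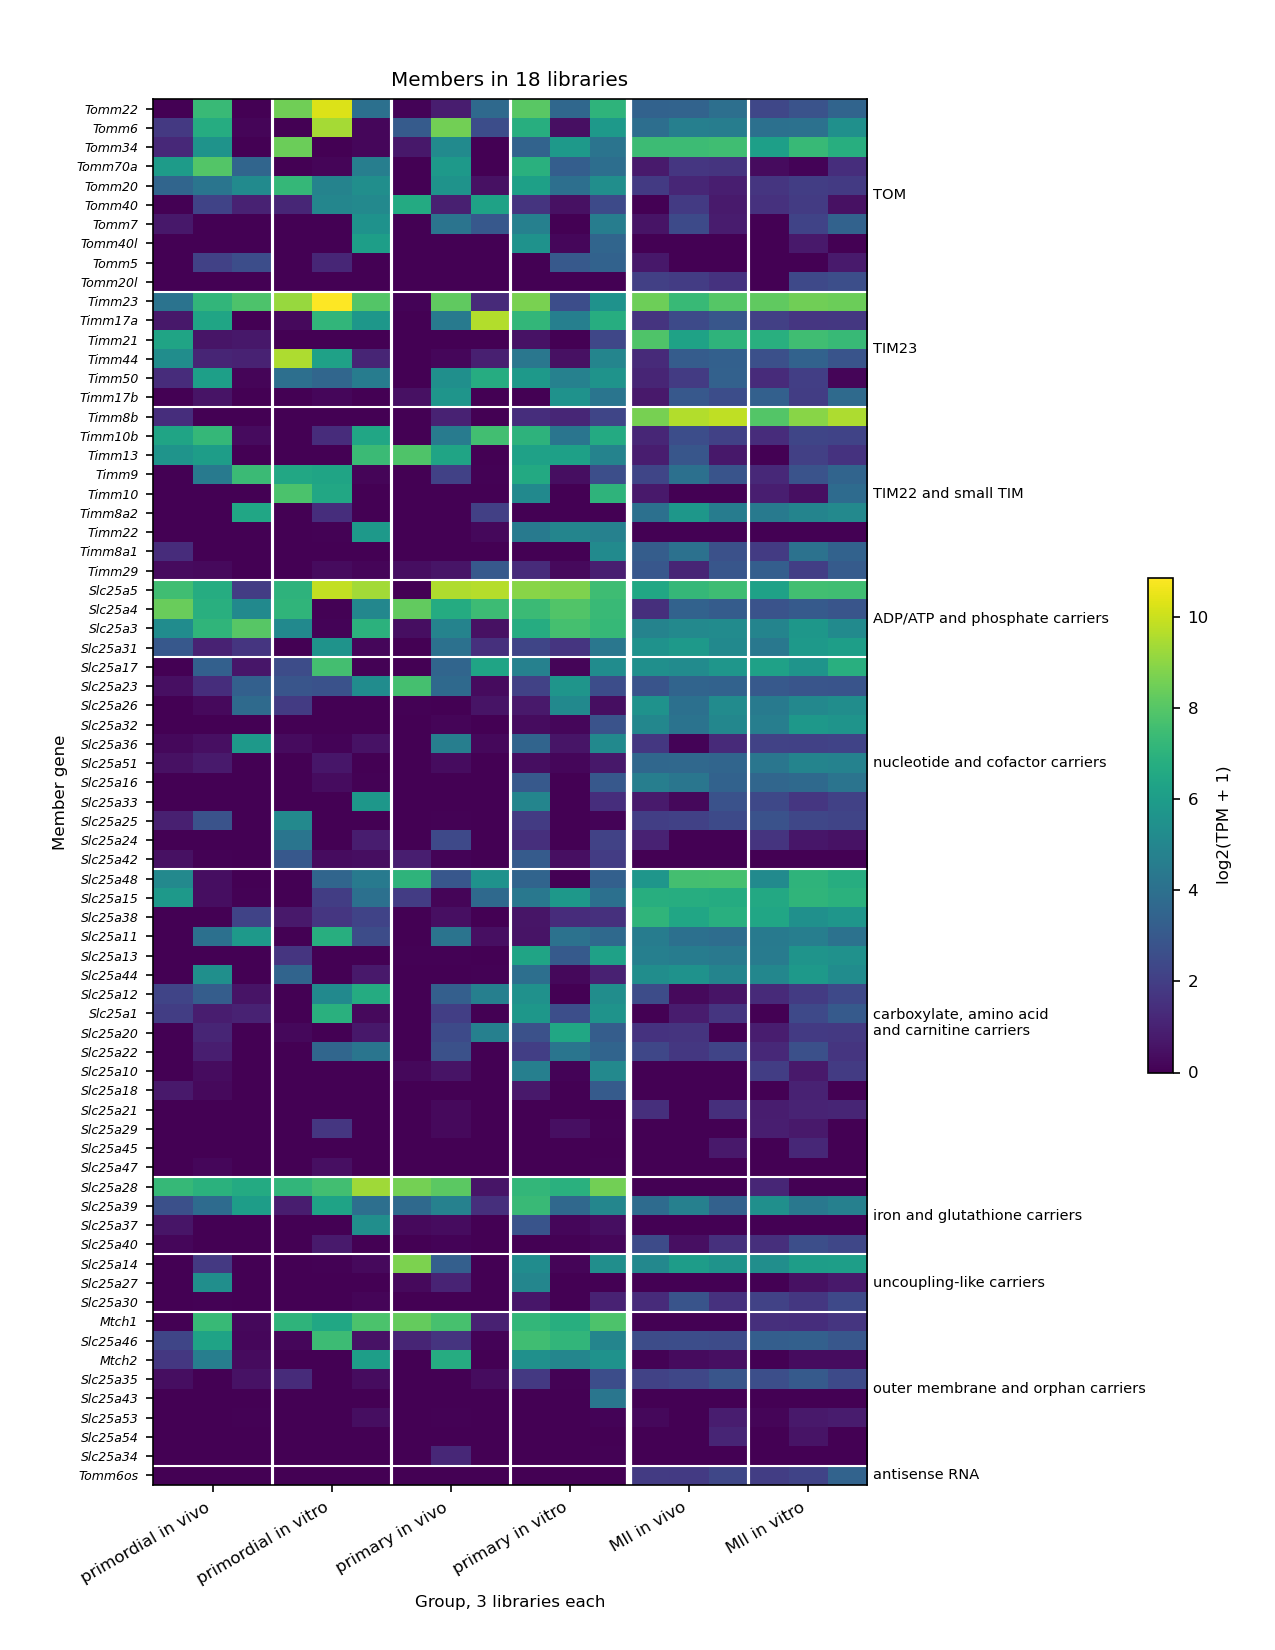
Level of 72 of the 73 genes in each of the 18 libraries on the scale of log2(TPM + 1), with genes in rows ordered by functional list and libraries in columns ordered by group. The 6 MII columns look alike, whereas neighbouring LCM columns of a group differ, with replicate Spearman correlations over the genes of 0.830 to 0.930 in MII and 0.125 to 0.759 in LCM groups.

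The number of the genes detected per library had a median of 36 (28 to 43) in the *in vivo* primordial group and 36 (28 to 38) in the *in vitro* primordial group. In the primary groups it was 29 (20 to 49) *in vivo* and 58 (43 to 63) *in vitro*. In MII oocytes it was 52 (51 to 54) *in vivo* and 59 (55 to 62) *in vitro*, so that the MII groups did not overlap whereas both LCM pairs did. Counted from 1 read up, the MII numbers were 53 to 56 *in vivo* and 56 to 65 *in vitro*, which met at 56. The count of all genes detected was 13238 to 14109 in the *in vivo* and 13708 to 15488 in the *in vitro* MII libraries, and its part in the difference was not tested. At the primary stage fewer oocytes were excised *in vivo* than *in vitro*, and the part of this input in the numbers detected was not tested. With 3 libraries against 3 the smallest p of an exact permutation test is 0.1, and none is given for these counts.

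The share of all TPM held by the 73 genes was 0.144% ± 0.0488 (SD, n = 3) in the *in vivo* primordial group and 0.412% ± 0.188 in the *in vitro* primordial group. The ranges were 0.115% to 0.200% and 0.291% to 0.628% and did not overlap. The summed TPM of 25 other genes of protein import did not overlap either, at 1308 to 4195 *in vivo* and 5014 to 6240 *in vitro*. In the primary groups the share was 0.239% ± 0.0286 *in vivo* and 0.264% ± 0.0815 *in vitro*, and in the MII groups 0.230% ± 0.0286 and 0.219% ± 0.0593, overlapping at both stages. The top 3 genes of a library held 28.5% to 75.2% of the sum in LCM and 43.3% to 52.7% in MII libraries. *Slc25a5* led in 5 of the 12 LCM libraries, and the other 7 were each led by a different gene. *Timm23* led with 1864 TPM in replicate 2 of the *in vitro* primordial group, which had the highest share of all.

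**Figure D2:**
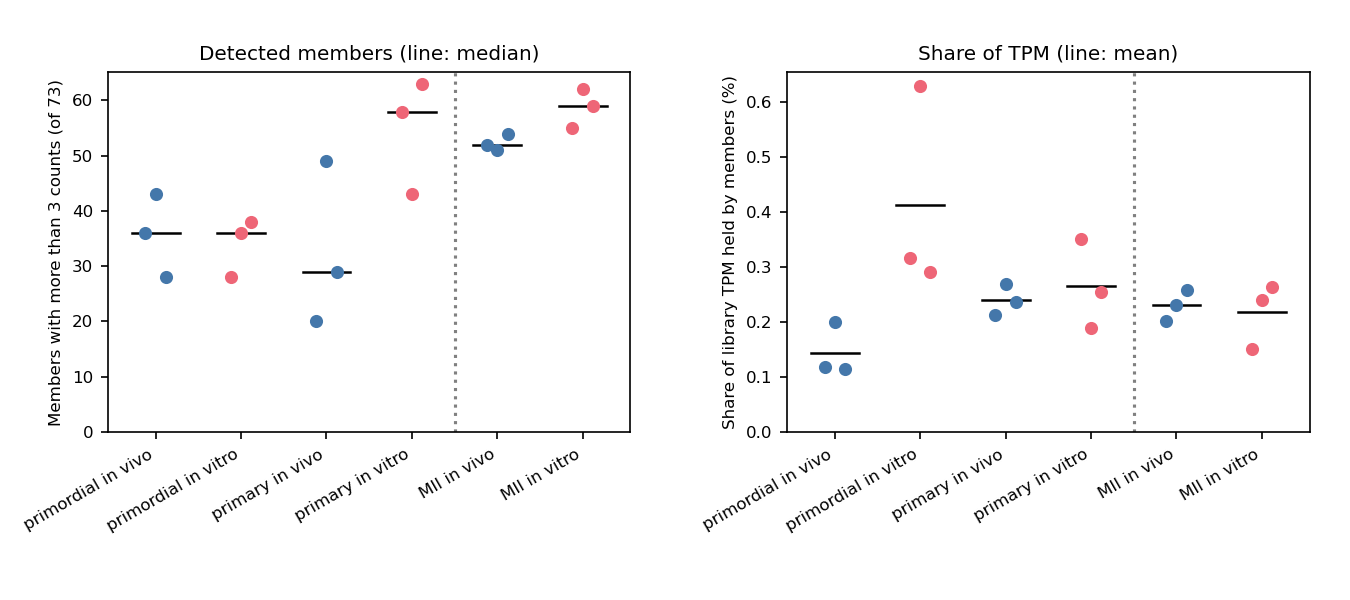
Number of the 73 genes above 3 counts (first panel) and their share of all TPM in percent (second panel) in each library, in blue for *in vivo* and red for *in vitro* growth, with black lines at the group median (first panel) or mean (second panel) and a dotted line between LCM and MII groups. The *in vitro* MII libraries had 55 to 62 genes detected and the *in vivo* MII libraries 51 to 54, while the shares of the MII groups overlapped.

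Dropout within a group was common in LCM libraries. Of the genes above 100 counts in at least 1 library of the group, 18 of 35 in the *in vivo* primordial group, 27 of 40 in the *in vitro* primordial group, 23 of 34 in the *in vivo* primary group and 17 of 53 in the *in vitro* primary group were at or under 3 counts in another library of the same group. These are 51.4%, 67.5%, 67.6% and 32.1% of the genes, beside 45.0%, 51.3%, 60.1% and 29.0% of all genes counted alike. In MII oocytes this was so for 0 of 28 genes *in vivo* and 0 of 35 *in vitro*, against 0.816% and 0.395% of all genes. MII libraries had fewer total counts, so 100 counts is a stricter cut there. Above 30 counts it was so for 4 of 47 genes, or 8.51%, *in vivo* and 3 of 51, or 5.88%, *in vitro*. All genes stood at 8.06% and 5.30%.

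The receptors of the TOM complex, which bind incoming precursors at the outer membrane, were measured in all LCM groups at scattered levels. *Tomm20* had 10.5, 17.8 and 35.8 TPM in the *in vivo* and 152, 28.3 and 40.9 TPM in the *in vitro* primordial libraries. In the primary libraries it had 0, 46.2 and 0.398 TPM *in vivo* and 71.4, 14.6 and 40.1 TPM *in vitro*, with overlap at both stages. In MII oocytes *Tomm20* was low, at 2.58, 1.23 and 0.904 TPM *in vivo* and 2.22, 2.89 and 2.63 TPM *in vitro*. Its paralogue *Tomm20l* was at 0 counts in all 12 LCM libraries and had 3.13, 2.79 and 2.05 TPM in the *in vivo* and 0, 4.34 and 5.11 TPM in the *in vitro* MII libraries. *Tomm20* thus held 30.6% to 45.2% of the TPM of the pair in *in vivo* MII libraries and all of it in the LCM libraries in which the pair was detected. *Tomm22*, the central receptor, varied most, from 15.3 to 1263 TPM among the 3 *in vitro* primordial libraries, and stood at 4.01 to 14.7 TPM in the MII libraries. *Tomm70a*, the receptor that takes up carriers with their chaperones, had 62.2, 249 and 10.6 TPM in *in vivo* and 0, 0.0932 and 24.1 TPM in *in vitro* primordial libraries, and at most 2.31 TPM in MII libraries.

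The channel gene *Tomm40* had at most 2.71 TPM in MII libraries and up to 99.3 TPM in LCM libraries. Its paralogue *Tomm40l* was at 0 counts in the 9 *in vivo* libraries of all stages. *Tomm40l* had 0, 0 and 2250 counts in the *in vitro* primordial, 1608, 6 and 441 counts in the *in vitro* primary and 0, 12 and 0 counts in the *in vitro* MII libraries. Only the primary stage had all 3 *in vitro* libraries above the *in vivo* ones, and the primordial and MII values each rested on 1 library. Of the small subunits, which steady the channel, *Tomm5* was at or under 3 counts in all 6 MII libraries and *Tomm7* was at 0 to 9.81 TPM. *Tomm6* had 14.2, 24.9 and 23.0 TPM in the *in vivo* and 15.3, 15.6 and 42.8 TPM in the *in vitro* MII libraries, which overlapped. *Tomm6* shares its locus with the antisense *Tomm6os*, and the strand setting of the counting is not stated, so reads of the pair cannot be told apart.

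*Tomm34*, a cytosolic co-chaperone of import, was the most abundant gene of this list in MII oocytes. It had 173, 174 and 185 TPM *in vivo* and 70.1, 160 and 110 TPM *in vitro*, and was the only gene of the 64 tested whose *in vitro* MII libraries all lay below the *in vivo* ones, 1.56% of them beside 6.81% of all genes. The highest *in vitro* library was close to the lowest *in vivo* library.

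*Timm23*, the channel gene of the presequence route, had 349, 158 and 253 TPM in the *in vivo* and 297, 359 and 345 TPM in the *in vitro* MII libraries, with overlap. In the primordial libraries it had 16.5, 141 and 229 TPM *in vivo* and 590, 1864 and 249 TPM *in vitro*, all 3 *in vitro* values being above the *in vivo* ones on the TPM scale. After the TMM scaling of the counts used for the tests, the primordial groups overlapped for *Timm23*. In the primary libraries it had 0.0805, 297 and 1.42 TPM *in vivo* and 404, 4.96 and 45.3 TPM *in vitro*, with overlap. Its partner in the channel is either *Timm17a* or *Timm17b*. *Timm17a* held 39.1% to 75.8% of the TPM of that pair in *in vivo* and 16.1% to 44.0% in *in vitro* MII libraries, at levels of 2.07 to 6.48 and 2.27 to 3.21 TPM. The shares overlapped, and in LCM libraries *Timm17a* ranged from 0 to 788 TPM.

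*Timm21*, which links the TIM23 complex to the TOM complex and to the respiratory chain, was abundant in MII oocytes and sparse elsewhere. It had 231, 75.0 and 132 TPM in the *in vivo* and 115, 186 and 158 TPM in the *in vitro* MII libraries, which overlapped. Among LCM libraries only replicate 1 of the *in vivo* primordial group, with 722 counts, and replicate 3 of the *in vitro* primary group, with 42 counts, were above 6 counts. *Timm21* overlaps *Fbxo15* on the opposite strand, and counts of the pair cannot be told apart without strand.

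The carrier translocase gene *Timm22* was at 0 counts in all 6 MII libraries. In LCM libraries it was at 0 counts in all 3 *in vivo* primordial libraries and at 0, 1 and 1156 counts in the *in vitro* primordial ones. The primary libraries had 0, 0 and 3 counts *in vivo* and 448, 721 and 676 counts *in vitro*, with no overlap. Of the small TIM chaperones *Timm10* was at 0 counts in all 6 *in vivo* LCM libraries, at 851, 633 and 0 counts in the *in vitro* primordial and at 194, 0 and 864 counts in the *in vitro* primary libraries. In MII oocytes it had 2, 0 and 0 counts *in vivo* and 3, 1 and 34 counts *in vitro*. A library at 0 was thus present in both *in vitro* LCM groups. *Timm13*, which works with the Timm8 proteins, had 27.9 to 73.9 TPM in the *in vitro* primary libraries and 0 to 6.60 TPM in MII oocytes. *Timm10b*, the small TIM bound to the TIM22 complex, had 1.26 to 4.96 TPM in MII oocytes and up to 188 TPM in LCM libraries.

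The Timm8 genes encode further chaperones of the space between the membranes and were well detected in MII oocytes. *Timm8b* had 394, 786 and 909 TPM in the *in vivo* and 250, 494 and 742 TPM in the *in vitro* MII libraries, which overlapped, and was the leading gene of the 73 in 5 of the 6. In the 12 LCM libraries it never exceeded 3.84 TPM. *Timm8a2* had 15.1, 53.6 and 22.3 TPM *in vivo* and 20.5, 29.2 and 33.9 TPM *in vitro* in MII oocytes, and exceeded 10 TPM in 1 LCM library only, at 86.5 TPM. *Timm8a1*, the X-linked form, had 8.32, 15.6 and 5.41 TPM *in vivo* and 2.66, 16.0 and 9.71 TPM *in vitro* at the MII stage. *Timm8a1* held 19.5% to 35.5% of the TPM of this pair *in vivo* and 11.5% to 35.4% *in vitro*, nearly the same ranges. *Timm8b* overlaps *Nkapd1* on the opposite strand, and the 2 *Timm8a* genes are close copies, so their split rests on how reads with several matches were counted.

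The proximal promoters of the 2 import genes that led the MII libraries, *Timm8b* and *Timm23*, are shown because both held a core of the ETS family binding motif. They run 5′ to 3′ from 250 bases before to 50 bases after the RefSeq start, on GRCm38.p6, with CCGGAAG or its reverse complement CTTCCGG in capitals. The *Timm8b* promoter is chr9:50603651-50603950 on the plus strand, with the motif starting at −12 from the start and 22 CpG, and the *Timm23* promoter is chr14:32201842-32202141 on the minus strand, with the motif at −47 and at 11 and 35 CpG.
Timm8b: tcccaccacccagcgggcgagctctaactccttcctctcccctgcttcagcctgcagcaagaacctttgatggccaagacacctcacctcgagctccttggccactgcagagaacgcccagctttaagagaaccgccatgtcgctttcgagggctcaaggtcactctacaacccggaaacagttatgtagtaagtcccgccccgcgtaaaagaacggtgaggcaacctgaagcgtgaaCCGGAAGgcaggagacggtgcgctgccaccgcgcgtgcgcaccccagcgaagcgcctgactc
Timm23: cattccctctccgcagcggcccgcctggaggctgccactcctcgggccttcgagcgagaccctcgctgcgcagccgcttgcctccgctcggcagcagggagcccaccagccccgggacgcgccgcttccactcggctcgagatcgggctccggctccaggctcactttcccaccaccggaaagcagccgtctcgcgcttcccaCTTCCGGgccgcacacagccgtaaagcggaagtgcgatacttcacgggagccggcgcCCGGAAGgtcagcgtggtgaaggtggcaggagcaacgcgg

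The ADP/ATP carriers, which send ATP to the cytosol in exchange for ADP, varied in their order between libraries. *Slc25a5* had the largest share in all MII and all *in vitro* primary libraries, and in some *in vitro* primordial and *in vivo* primary libraries. In all *in vivo* primordial libraries *Slc25a4* had the largest share. *Slc25a4*, known as the form of heart and muscle, had 333, 116 and 34.3 TPM in *in vivo* and 136, 0.0499 and 31.2 TPM in *in vitro* primordial libraries, and 307, 103 and 171 TPM and 171, 237 and 165 TPM in the primary libraries. In MII libraries it had 1.79, 9.69 and 8.04 TPM *in vivo* and 5.93, 7.48 and 6.39 TPM *in vitro*. *Slc25a4* so made up 1.32% to 6.07% of the TPM of the 3 carriers in MII libraries and 0.00504% to 100% in LCM libraries. Its levels in TPM overlapped between the growth groups at each stage, and its shares overlapped in primary and MII oocytes. In the primordial groups the shares did not overlap, with 52.3% to 87.3% *in vivo* and 0.00504% to 51.3% *in vitro*, and those of *Slc25a5*, parts of the same sum, were 7.14% to 47.2% and 48.7% to 95.4%. *Slc25a5*, the form of proliferating cells, had 89.1, 152 and 178 TPM *in vivo* and 72.3, 189 and 187 TPM *in vitro* in MII oocytes. It held 65.5% to 80.5% of the carrier TPM in *in vivo* and 72.0% to 74.3% in *in vitro* MII libraries, and was the main form in both groups. In LCM libraries *Slc25a5* ran from 0 to 943 TPM, and the library at 0, replicate 1 of the *in vivo* primary group, stood beside 763 and 798 TPM in the other libraries of its group.

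*Slc25a31*, the form known from germ cells, had 45.1, 57.0 and 35.1 TPM in the *in vivo* and 19.5, 57.6 and 66.1 TPM in the *in vitro* MII libraries. Its share of the 3 carriers was 15.9% to 33.2% and 19.9% to 25.5% there, against at most 5.52% in any LCM library, although a level of 47.5 TPM was reached in 1 *in vitro* primordial library. The growth groups overlapped in MII oocytes. *Slc25a3*, the phosphate carrier that supplies the ATP synthase, had 27.7, 33.2 and 37.2 TPM *in vivo* and 28.5, 53.4 and 35.9 TPM *in vitro* in MII oocytes. Its primary libraries did not overlap, with 0.337, 27.8 and 0.387 TPM *in vivo* and 106, 199 and 153 TPM *in vitro*. The primordial libraries did, with 38.1, 138 and 263 TPM and 34.4, 0.0635 and 124 TPM.

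**Figure D3:**
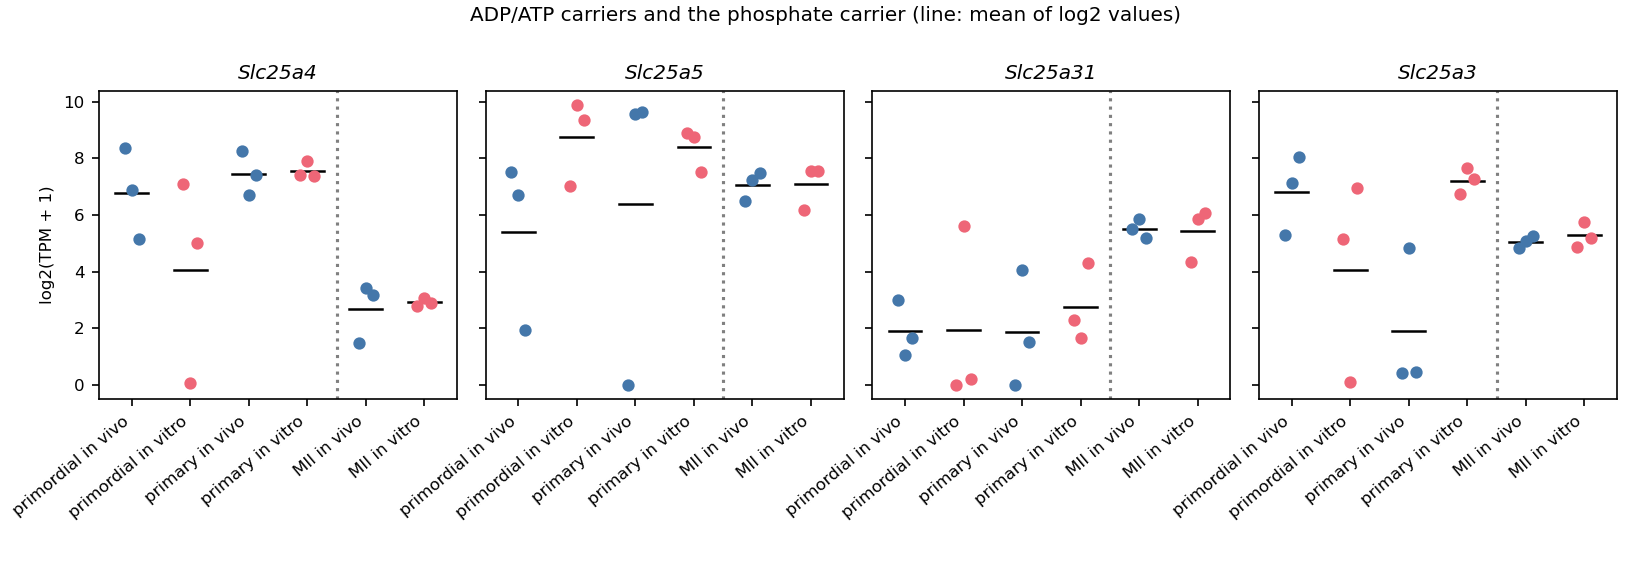
Levels, as log2(TPM + 1), of the ADP/ATP carriers *Slc25a4*, *Slc25a5* and *Slc25a31* and of the phosphate carrier *Slc25a3* in each library, in blue for *in vivo* and red for *in vitro* growth, with black lines at the group means and a dotted line between LCM and MII groups. In MII libraries *Slc25a5* held 65.5% to 80.5% of the TPM of the ADP/ATP carriers and *Slc25a4* at most 6.07%, and the growth groups overlapped for all 4 genes.

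The promoters of the 3 ADP/ATP carriers are printed because the order of these paralogues varied between libraries and they differ in the motifs searched. Windows, build and source are as above, with the ETS core, or the NRF1 core GCGCATGC and its reverse complement GCATGCGC, in capitals. The *Slc25a4* promoter, chr8:46211013-46211312 on the minus strand, had an ETS core at −130 and 25 CpG. The *Slc25a5* promoter, chrX:36795347-36795646 on the plus strand, had none of the motifs and 18 CpG, and the *Slc25a31* promoter, chr3:40708621-40708920 on the plus strand, had an NRF1 core at −110 and 22 CpG.
Slc25a4: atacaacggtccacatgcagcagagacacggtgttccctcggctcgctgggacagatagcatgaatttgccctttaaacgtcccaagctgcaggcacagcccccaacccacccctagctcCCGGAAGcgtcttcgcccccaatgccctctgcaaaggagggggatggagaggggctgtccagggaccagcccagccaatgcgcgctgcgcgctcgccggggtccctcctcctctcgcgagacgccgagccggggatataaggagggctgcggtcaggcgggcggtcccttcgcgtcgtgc
Slc25a5: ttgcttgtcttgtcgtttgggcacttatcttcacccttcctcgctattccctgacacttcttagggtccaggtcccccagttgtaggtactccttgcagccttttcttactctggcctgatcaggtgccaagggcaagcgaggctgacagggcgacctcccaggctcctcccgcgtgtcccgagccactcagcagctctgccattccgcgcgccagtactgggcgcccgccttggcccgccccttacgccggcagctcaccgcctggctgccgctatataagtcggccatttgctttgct
Slc25a31: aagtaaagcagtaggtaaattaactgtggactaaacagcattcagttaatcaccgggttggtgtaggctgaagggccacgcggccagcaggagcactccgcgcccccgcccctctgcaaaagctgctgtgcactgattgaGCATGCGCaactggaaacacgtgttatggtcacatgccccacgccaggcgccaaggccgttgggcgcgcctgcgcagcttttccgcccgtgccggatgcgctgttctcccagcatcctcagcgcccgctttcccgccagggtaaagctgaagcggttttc

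Over the 60 of the 73 genes with a promoter in the RefSeq table, the ETS core was found on either strand in 16, or 26.7%, beside 9.93% of 27025 genes. The NRF1 core was found in 4, or 6.67%, beside 3.05%, and the TATA box TATAAA or its reverse complement in 4, or 6.67%, beside 15.7%. Their 73 listed promoters had a median of 16 CpG and 59% GC, and all 32851 promoters a median of 7 CpG and 52.7% GC. None of the 3 motifs contains another, and the GC content, which differed, bears on how often a GC-rich motif is met. A match describes the letters only.

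Of the 12 carriers of nucleotides and cofactors, 8 were above 3 counts in all *in vivo* and 11 in all *in vitro* MII libraries. *Slc25a17*, a peroxisomal carrier of CoA and related cofactors, had 41.5, 36.4 and 51.4 TPM *in vivo* and 72.4, 48.1 and 113 TPM *in vitro*, with slight overlap. *Slc25a26*, which brings in S-adenosylmethionine, had 46.1, 15.0 and 37.2 TPM and 20.5, 32.7 and 38.9 TPM. *Slc25a23*, an ATP-Mg/phosphate carrier, had 6.11 to 10.3 TPM *in vivo* and 6.02 to 7.29 TPM *in vitro*. Its LCM levels ran from 0.258 to 199 TPM, both extremes lying in the *in vivo* primary group. *Slc25a32*, the folate and FAD carrier, had at most 5.81 TPM in LCM libraries and 16.8 to 55.0 TPM in MII libraries, and *Slc25a24*, the other ATP-Mg/phosphate carrier named here, at most 2.14 TPM in MII libraries.

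*Slc25a51*, the carrier of NAD, had 220, 191 and 196 counts in the *in vivo* and 418, 566 and 493 counts in the *in vitro* MII libraries, with no overlap in counts or in TPM. It was under 1 TPM in all LCM libraries. *Slc25a16*, related to coenzyme A supply, had 9.61 to 23.8 TPM *in vivo* and 10.9 to 16.9 TPM *in vitro* in MII oocytes, and 7.24 TPM at most in LCM libraries.

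Among the carriers of carboxylates and amino acids, *Slc25a15*, the ornithine carrier, was the steadiest high gene of the MII libraries, with 110, 107 and 101 TPM *in vivo* and 94.4, 139 and 122 TPM *in vitro*. *Slc25a38*, the glycine carrier needed for heme synthesis, had 136, 84.5 and 113 TPM *in vivo* and 86.0, 42.5 and 51.4 TPM *in vitro*, with overlap by 1 library. In LCM libraries it never exceeded 3.56 TPM. *Slc25a48* had 50.8, 196 and 201 TPM and 35.6, 132 and 107 TPM in the MII groups, where the lowest library of each group was its replicate 1.

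The aspartate/glutamate carriers *Slc25a12* and *Slc25a13*, which serve the malate-aspartate shuttle, differed in their balance. *Slc25a13* had 24.6, 22.7 and 20.2 TPM in *in vivo* and 21.8, 47.6 and 44.4 TPM in *in vitro* MII libraries. *Slc25a12* held 0.996% to 16.2% of the pair's TPM *in vivo* and 5.45% to 8.91% *in vitro* at this stage. In the *in vivo* LCM libraries where the pair was detected it held 99.6% to 100%, since *Slc25a13* had at most 1 count there. In the *in vitro* primary libraries *Slc25a13* had 2081, 215 and 2227 counts, and in the *in vitro* primordial libraries 40, 0 and 0 counts. The glutamate carrier *Slc25a18* was at 0 counts in all *in vivo* MII libraries and had 0, 1.04 and 0 TPM *in vitro*.

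*Slc25a10*, the dicarboxylate carrier that exchanges malate or succinate for phosphate, was near the floor in most libraries. It had 0, 7 and 0 counts in the *in vivo* and 0, 0 and 0 counts in the *in vitro* primordial libraries. The primary libraries had 4, 12 and 0 counts *in vivo* and 588, 2 and 939 counts *in vitro*. The MII libraries had 0, 0 and 0 counts *in vivo* and 43, 8 and 31 counts *in vitro*, or 2.95, 0.657 and 2.75 TPM. It lies at chr11:120491840-120499187 on the plus strand and overlaps *Gm11788* on the opposite strand.

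The iron carriers were at or near 0 in MII libraries. *Slc25a28*, or mitoferrin 2, had 98.4 to 642 TPM in 11 of the 12 LCM libraries, 0.516 TPM in replicate 3 of the *in vivo* primary group, and 0 TPM in 5 of the 6 MII libraries, the remaining 1 having 1.25 TPM. Its paralogue *Slc25a37*, mitoferrin 1 of red blood cell precursors, was at 0 counts in all 6 MII libraries, and *Slc25a28* held at least 94.2% of the pair's TPM in every LCM library. *Slc25a39*, which imports glutathione, had 12.9, 25.9 and 9.44 TPM *in vivo* and 41.7, 19.7 and 25.9 TPM *in vitro* in MII oocytes. It held at least 73.7% of the TPM of its pair with *Slc25a40* in every group, and its growth groups overlapped.

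Of the uncoupling-like carriers *Slc25a14* was the main form in MII oocytes, with 32.4, 63.0 and 46.4 TPM *in vivo* and 40.6, 64.4 and 66.9 TPM *in vitro*. *Slc25a27* had at most 0.685 TPM and *Slc25a30* 1.54 to 6.16 TPM there. In LCM libraries *Slc25a14* reached 421 TPM in replicate 1 of the *in vivo* primary group and was at 0 in replicate 3 of that group. At the outer membrane *Slc25a46*, which takes part in mitochondrial fusion and fission, had 4.70, 4.91 and 4.53 TPM in the *in vivo* and 8.56, 8.96 and 6.81 TPM in the *in vitro* MII libraries, with no overlap. *Mtch2*, an insertase of the outer membrane, had at most 0.348 TPM in MII libraries.

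*Mtch1*, the paralogue of *Mtch2*, had 1817, 2131 and 4034 counts in the *in vitro* primordial libraries and 0, 3234 and 4 counts *in vivo*. The primary libraries had 6312, 4356 and 15 counts *in vivo* and 2905, 2449 and 5187 counts *in vitro*. The MII libraries had 0, 0 and 0 counts *in vivo* and 21, 17 and 21 counts *in vitro*, or 1.73, 1.68 and 2.24 TPM. *Mtch1* lies at chr17:29332072-29347934 on the minus strand.

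Between the sample types 15 genes were above 3 counts in all MII libraries and in at most 6 of the 12 LCM libraries, or 20.5% beside 15.4% of the 28252 genes of the TPM table. For 9 genes, among them *Slc25a15*, *Slc25a16*, *Slc25a30*, *Slc25a32*, *Slc25a38*, *Slc25a51*, *Timm8b* and *Tomm6os*, the lowest MII library was above the highest LCM library in TPM, which is 12.3% beside 14.7% of those 28252 genes, and 0 genes showed the opposite, beside 1.25%. 6 genes were at 0 counts in all MII libraries, namely *Slc25a34*, *Slc25a37*, *Slc25a42*, *Slc25a43*, *Slc25a47* and *Timm22*, or 8.22% beside 24.3% of those genes. 4 were at 0 counts in all LCM libraries, namely *Slc25a45*, *Slc25a54*, *Tomm20l* and *Tomm6os*, or 5.48% beside 32.5%, and none was at 0 in all 18, beside 9.03%. These are descriptions only, since the LCM libraries saw exome-probe targets and the MII libraries polyadenylated RNA.

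The first question of the design, whether culture of the ovary altered the oocytes of primordial follicles, was tested over 15317 genes in a model of all 12 LCM libraries with edgeR's quasi-likelihood test and Benjamini-Hochberg adjustment, a call needing an adjusted p under 0.05 and a fold of at least 2. Of the 73 genes 68 could be tested and 0 were called, beside 0.0326% of all genes. At an unadjusted p under 0.05 there were 8, or 11.8%, 6 higher and 2 lower *in vitro*, beside 11.7% of all genes. DESeq2 called 4 of the 43 genes it gave an adjusted p, beside 9.3% of all genes, namely *Tomm40l*, *Timm10*, *Slc25a24* and *Timm22*, all higher *in vitro*, and limma on TPM called 0, beside 0%. The median log2 fold change of the 68 was 1.44, and 1.39 with groups at 0 set at their bound, beside 0 for all genes, and it was 0 without replicate 2 or without replicate 3 of the *in vitro* primordial group, when the median of all genes was −0.61 and −0.66. After TMM scaling of the counts 1 gene did not overlap between the groups and was higher *in vitro*, *Slc25a28*, 1.47% beside 2.04% of all genes, and 1 was lower, *Timm21*, 1.47% beside 4.55%.

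The smallest p at this stage belonged to genes seen in only some libraries. *Tomm40l*, with 2250 counts in 1 *in vitro* library and 0 *in vivo*, was at least 275-fold higher (edgeR log2 fold change 12.71 ± 4.85 (SE), adjusted p = 0.359, a fitted value that depends on the prior count). *Timm10* was at least 214-fold higher (12.35 ± 4.87, edgeR adjusted p = 0.359) from 2 of 3 *in vitro* libraries, and *Timm22* at least 141-fold higher (11.75 ± 4.75, edgeR adjusted p = 0.359) from 1. *Timm21* had 722, 5 and 6 counts *in vivo* and 0 *in vitro* and was at least 66.6-fold lower (−10.92 ± 4.55, edgeR adjusted p = 0.359). None of these passed the edgeR test.

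The same question for oocytes of primary follicles gave 0 calls among the 68 genes, beside 0% of all genes. At an unadjusted p under 0.05 edgeR had 10, or 14.7%, all higher *in vitro*, beside 9.66% of all genes, and these were 2 without replicate 1 and 3 without replicate 3 of the *in vivo* primary group. DESeq2 called 2 of 41, *Tomm40l* and *Slc25a13*, beside 3.11%, and limma 0, beside 0%. The median log2 fold change was 1.80, or 1.70 with groups at 0 at their bound, beside 0.44 for all genes, with 50 genes positive and 18 negative. Without replicate 2 of the *in vivo* primary group these medians were 5.70 and 2.34, and with the size factors of DESeq2 in edgeR they were 1.57 and 0.17. In 13 genes, or 19.1%, every *in vitro* library was above every *in vivo* library, beside 8.74% of all genes, and in 0 genes the reverse, beside 1.25%. Those 13 were *Tomm22* and *Tomm40l* of the TOM list, *Timm22* and *Timm8b* of the small TIM list, and the carriers *Slc25a1*, *Slc25a3*, *Slc25a13*, *Slc25a15*, *Slc25a30*, *Slc25a32*, *Slc25a38*, *Slc25a44* and *Slc25a46*, the names being given after their values were seen. Some were low also *in vitro*, with means of 0.544 TPM for *Slc25a30*, 1.31 for *Slc25a38*, 2.08 for *Slc25a32* and 2.27 for *Timm8b*. *Slc25a30* did not exceed 3 counts in every *in vitro* primary library. The number of all genes detected was 8880 to 11710 in the *in vitro* and 4842 to 10283 in the *in vivo* primary libraries, and the blood markers given above were lower *in vitro*. Fewer primary oocytes were excised *in vivo*. The part of these differences in the count of 13 was not tested.

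*Tomm40l* at the primary stage was at least 144-fold higher *in vitro* (edgeR adjusted p = 0.440, DESeq2 adjusted p = 9.01e-09). *Slc25a13*, with 1, 1 and 0 counts *in vivo*, had a ratio of 1586 (counting interval 439 to 1.31e+04) and a log2 fold change of 10.31 ± 4.65 (edgeR adjusted p = 0.444, DESeq2 adjusted p = 0.0224). Here all 3 *in vitro* libraries were high. *Slc25a16* had 240, 0 and 269 counts *in vitro* against 0 in each *in vivo* library, which is at least 35.2-fold higher (9.96 ± 4.19, edgeR adjusted p = 0.440). *Timm10* was at least 72.2-fold higher (edgeR adjusted p = 0.440), and *Timm8a1*, with 406 counts in 1 library, at least 27.5-fold higher (9.60 ± 4.06, edgeR adjusted p = 0.440). For each of these 3 genes at least 1 *in vitro* library was at 0.

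Whether culture acted differently at the 2 LCM stages was tested by the interaction of growth and stage, with 0 of 68 genes called, beside 0.104% of all genes. At an unadjusted p under 0.05 edgeR had 7, or 10.3%, beside 11.5%, DESeq2 called 2 of 45, *Tomm40* and *Timm22*, both negative, beside 5.91%, and limma 0, beside 0%. The median was 0.16, beside 0.91 for all genes. *Timm21* came first (17.41 ± 5.85, edgeR adjusted p = 0.198), since it was present *in vivo* at the primordial stage and *in vitro* at the primary stage and at 0 in the other groups. *Timm8a1* (15.04 ± 5.21, edgeR adjusted p = 0.215), *Slc25a18* (12.94 ± 4.68, adjusted p = 0.237) and *Slc25a27* (14.80 ± 5.72, adjusted p = 0.275) followed, all with groups at or near 0.

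The step from primordial to primary follicles *in vivo* gave 0 calls among 68 genes, beside 0.0522% of all genes. At an unadjusted p under 0.05 edgeR had 5, or 7.35%, 2 higher and 3 lower in primary follicles, beside 11.2%. DESeq2 called 2 of 44, *Tomm40* and *Timm22*, both higher, beside 6.23%, and limma 0, beside 0%. *Timm21* was at least 68.6-fold lower (−10.92 ± 4.55, edgeR adjusted p = 0.380) and *Tomm5* at least 5.26-fold lower (−7.23 ± 3.50, edgeR adjusted p = 0.424). *Slc25a14* (8.02 ± 3.89) and *Slc25a24* (8.06 ± 3.93) were higher, both with an edgeR adjusted p = 0.426. Libraries of the groups overlapped for *Tomm5*, *Slc25a14* and *Slc25a24*. In the primary libraries *Slc25a14* had 143 ± 241 TPM (SD) and *Slc25a24* 1.42 ± 2.47 TPM, a spread wider than the mean. The median was 0 for the 68 genes and 0 for all genes, and 1 gene did not overlap and was higher, 1.47% beside 2.36% of all genes, while 3 were lower, 4.41% beside 4.02%.

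The same step *in vitro* gave 0 calls among the 68, beside 0% of all genes, and 7 at an unadjusted edgeR p under 0.05, or 10.3%, all higher in primary follicles, beside 10.9%. DESeq2 called 1 of 43, *Slc25a10*, beside 5.15%, and limma 0, beside 0%. *Slc25a10*, with 588, 2 and 939 counts against none, was at least 102-fold higher (11.54 ± 4.74, edgeR adjusted p = 0.384, DESeq2 adjusted p = 0.0095). *Timm8a1* (9.60 ± 4.06), *Slc25a32* (9.20 ± 3.91) and *Slc25a43* (8.96 ± 3.84) were at 0 in all *in vitro* primordial libraries and had the same edgeR adjusted p = 0.384. Of these *Slc25a32* had counts in all 3 primary libraries, with 12, 7 and 284. In 7 genes, or 10.3%, the groups did not overlap and primary follicles were higher, beside 9.87% of all genes, and in 0 the reverse, beside 1.34%. The comparisons within the LCM libraries share groups with each other and are not independent.

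In MII oocytes, where the question was whether growth *in vitro* from the early follicle altered the mature egg, 64 of the 73 genes could be tested among 17144. None was called by edgeR, beside 0.35% of all genes, and 5, or 7.81%, had an unadjusted p under 0.05, all higher *in vitro*, beside 10.2% of all genes. Among these 5 were *Slc25a10*, *Mtch1*, *Slc25a51* and *Slc25a17*. There were 14 without replicate 1 of the *in vivo* group, with 0 called. DESeq2 called 2 of 58, *Slc25a10* and *Mtch1*, beside 2.54%, and limma 0, beside 0.136%. The median log2 fold change was 0.31, or 0.28 with groups at 0 at their bound, beside 0.04 for all genes, with 44 genes positive and 20 negative, or 68.8% positive beside 51.7% of all genes. It was 0.21 without replicate 3 of the *in vitro* group. In 8 genes, or 12.5%, every *in vitro* library was above every *in vivo* library after scaling, beside 9.37% of all genes, and among these were *Mtch1*, *Slc25a3*, *Slc25a10*, *Slc25a13*, *Slc25a36*, *Slc25a46* and *Slc25a51*, named after their values were seen. In TPM the groups overlapped for 3 of them, *Slc25a3* and *Slc25a13* included.

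*Slc25a10* in MII oocytes was at least 8.97-fold higher *in vitro* (7.81 ± 1.99, edgeR adjusted p = 0.184, DESeq2 adjusted p = 0.00793). *Mtch1* was at least 6.22-fold higher (7.28 ± 2.10, edgeR adjusted p = 0.266, DESeq2 adjusted p = 0.0322). Both were found in 3 of 3 *in vitro* and 0 of 3 *in vivo* libraries, at 8 to 43 counts, and the tools differed on these genes close to the floor. The granulosa markers *Inhba* and *Inha* given above were likewise at 0 counts *in vivo* and had up to 51 and 14 counts *in vitro*. Of the 5 granulosa markers tested 3 had a positive and 2 a negative log2 fold change, and the summed granulosa levels of the groups overlapped. The part of these markers in the differences was not tested. *Slc25a51*, far above the floor in all 6 libraries, had a log2 fold change of 1.18 ± 0.37 (edgeR adjusted p = 0.295). All 3 *in vitro* counts of this carrier were above all 3 *in vivo* counts.

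**Figure D4:**
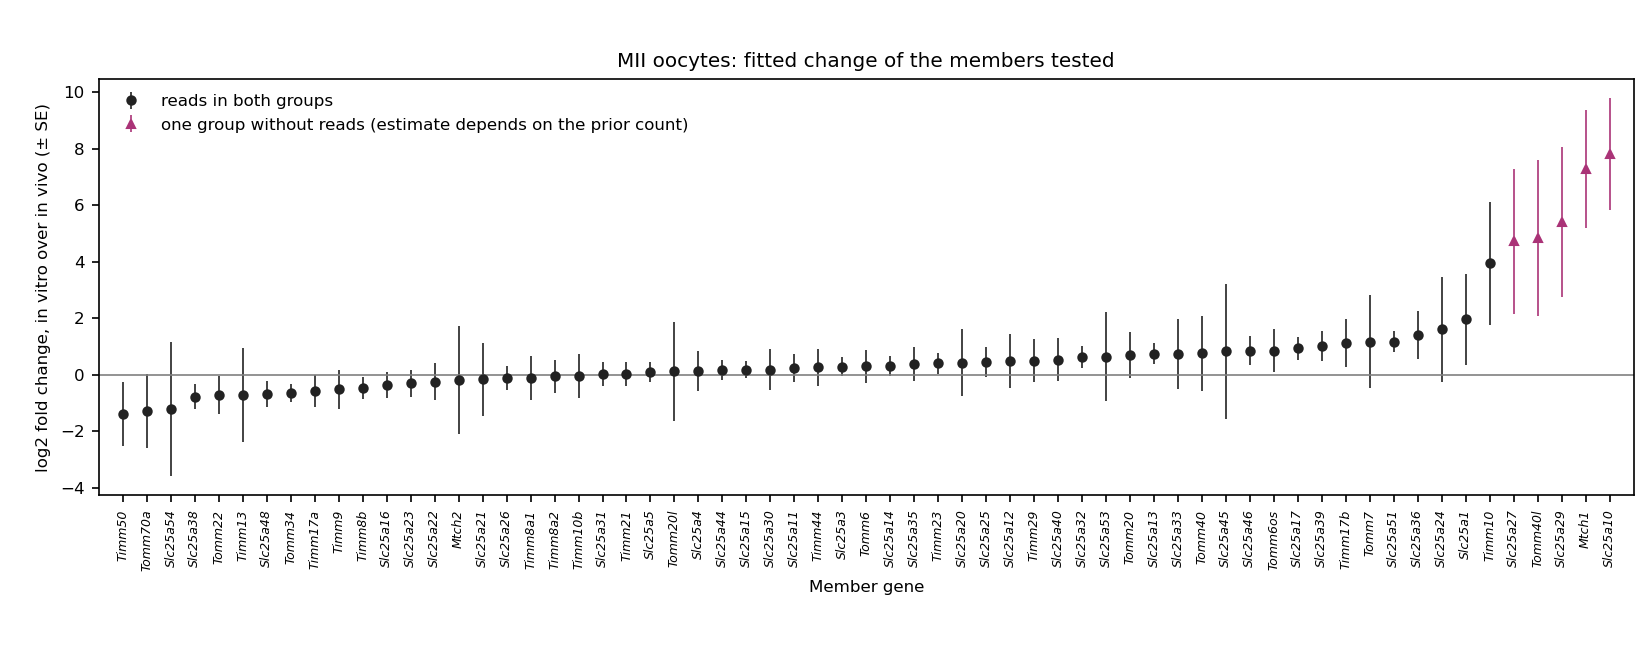
Log2 fold change of *in vitro* over *in vivo* MII oocytes for 63 of the 64 genes tested, with bars of 1 SE from edgeR, ordered by size. Triangles mark the 5 genes with a group at 0, whose fitted value depends on the prior count. Of the 64 genes 44 were positive and 20 negative with a median of 0.31, and none had an adjusted p under 0.05.

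7 of the genes, *Slc25a10*, *Slc25a13*, *Timm8a1*, *Timm10*, *Timm21*, *Tomm40l* and *Mtch1*, are named in the study's own account of these samples, so that their values are no independent evidence of a direction. In MII oocytes, beside *Slc25a10* and *Mtch1* above, *Slc25a13* had a log2 fold change of 0.74 ± 0.37 (edgeR adjusted p = 0.503). *Timm10* had a ratio of 17.8 (counting interval 4.61 to 153) from 38 counts against 2, with 34 of the 38 in 1 library (3.96 ± 2.18, edgeR adjusted p = 0.511). *Tomm40l* had 4.85 ± 2.76 (edgeR adjusted p = 0.519) from 12 counts in 1 library. *Timm21* (0.04 ± 0.43) and *Timm8a1* (−0.11 ± 0.77) were close to 0 with wide errors, with edgeR adjusted p of 0.988 and 0.981.

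At the primordial stage *Slc25a13* had a log2 fold change of 7.47 ± 3.89 (edgeR adjusted p = 0.432) from 40 counts in 1 *in vitro* library. *Timm8a1* had −5.44 ± 3.26 (edgeR adjusted p = 0.464) from 16 counts in 1 *in vivo* library, and *Slc25a10* −4.11 ± 3.15 (adjusted p = 0.598) from 7 counts in 1. *Mtch1* had 1.75 ± 2.40 (edgeR adjusted p = 0.870). At the primary stage *Timm21* had 6.49 ± 3.67 (edgeR adjusted p = 0.557), *Slc25a10* 6.04 ± 3.93 (adjusted p = 0.614) and *Mtch1* −0.59 ± 2.34 (adjusted p = 1). None of the 7 was called by edgeR at any stage among genes of at least 10 counts in total, and without that filter *Slc25a10* was called in MII oocytes (edgeR adjusted p = 0.0305).

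**Figure D5:**
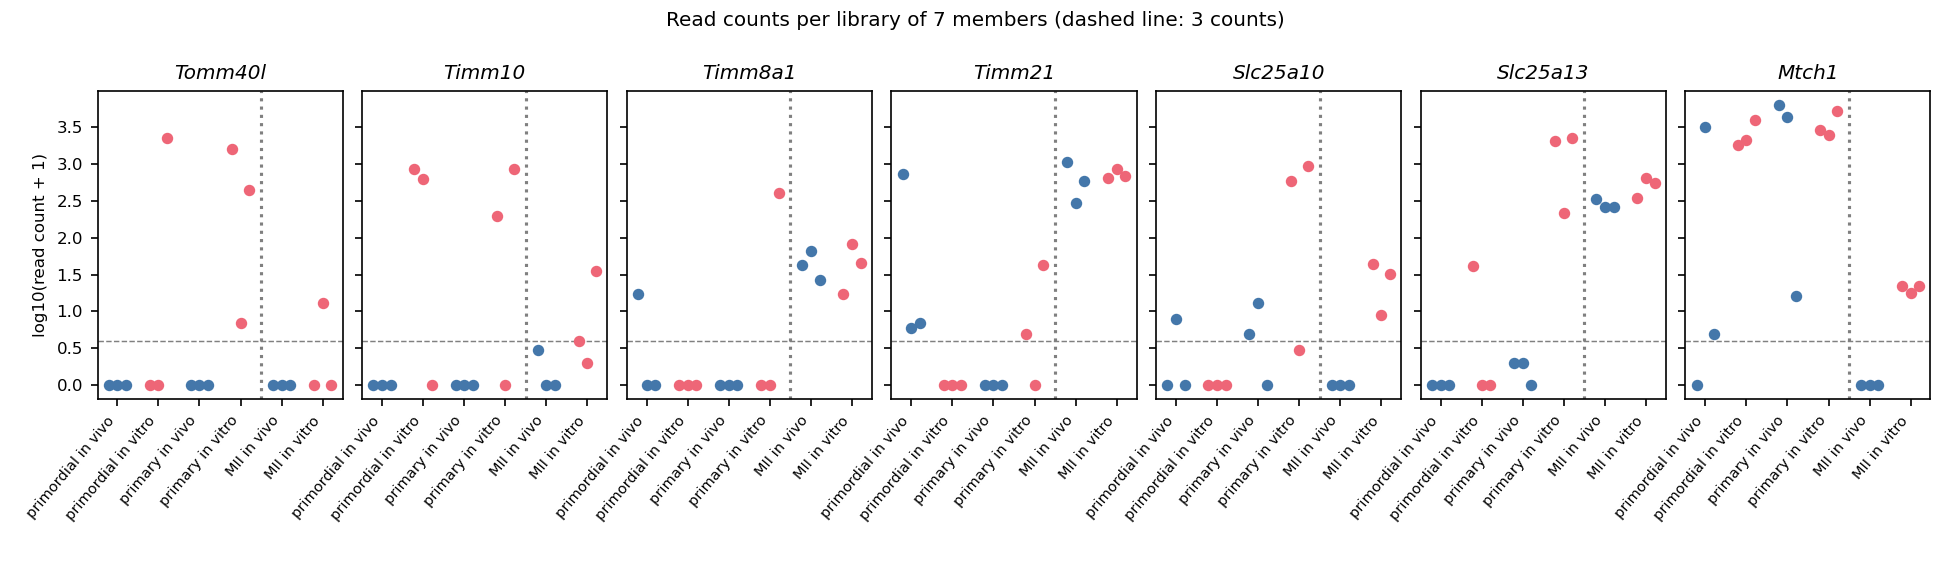
Counts per library, as log10(count + 1), of the 7 genes named in the study's account, in blue for *in vivo* and red for *in vitro* growth, with a dashed line at 3 counts and a dotted line between LCM and MII groups. In MII libraries *Slc25a10* and *Mtch1* were at 0 in all 3 *in vivo* libraries and at 8 to 43 and 17 to 21 counts *in vitro*, and in LCM groups libraries at 0 stood beside libraries of the same group with up to 3234 counts.

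By list, the edgeR counts of genes at an unadjusted p under 0.05 in MII oocytes were 3 of 11 nucleotide and cofactor carriers, 1 of 14 carriers of carboxylates and amino acids, 1 of 6 outer membrane and orphan genes, and 0 of 9 TOM, 0 of 6 TIM23, 0 of 8 TIM22 and small TIM, 0 of 4 ADP/ATP and phosphate, 0 of 2 iron and glutathione and 0 of 3 uncoupling-like genes, beside 10.2% of all genes. DESeq2 called 1 in each of the second and the third of these lists and 0 in the others, beside 2.54% of all genes. The median log2 fold change, in the same order of lists, was 0.74, 0.34, 0.52, 0.30, 0.15, −0.08, 0.12, 0.78 and 0.33, beside 0.04 for all genes. With groups at 0 at their bound it was 0.14 for the TOM and 0.19 for the uncoupling-like genes, and the other lists had the same value.

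Of 25 other genes of protein import, such as the presequence peptidases, motor subunits and chaperones of the matrix, edgeR called 1 in MII oocytes, beside 0.35% of all genes. *Mipep*, the peptidase that trims presequences after the first cleavage, rose *in vitro*, with 216, 318 and 376 counts *in vivo* and 855, 1280 and 1250 counts *in vitro* (1.81 ± 0.35, edgeR adjusted p = 0.0458). All 3 *in vitro* libraries were above the *in vivo* ones. *Romo1*, a small inner membrane protein, had −1.33 ± 0.38 (edgeR adjusted p = 0.240) and was called lower by DESeq2. The list's median was 0.20, beside 0.31 for the 64 import and carrier genes. In the 5 LCM comparisons, in the order above, edgeR called 0 of the 25 and had 2, 1, 2, 2 and 0 at an unadjusted p under 0.05, beside 11.7%, 9.66%, 11.5%, 11.2% and 10.9% of all genes. There limma called 0, and DESeq2 called 3, 0, 0, 2 and 0, beside 9.3%, 3.11%, 5.91%, 6.23% and 5.15% of all genes. Of 13 tested genes of other mitochondrial transporters, such as the porins and the pyruvate carrier, edgeR, DESeq2 and limma called 0 in MII oocytes, with 0 at an unadjusted edgeR p under 0.05, beside 10.2% of all genes, and a median of 0.18. In the LCM comparisons all 3 tools called 0 of 14, with 1, 0, 1, 2 and 1 at an unadjusted edgeR p under 0.05, beside the shares of all genes just given.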

How the data were processed

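RNA was measured in 18 libraries. The authors trimmed the reads with Trim Galore 0.4.1, mapped them to mm10 with TopHat2, counted them per gene with featureCounts and deposited the read counts without normalization. The authors also deposited TPM values, which are scaled for library size and gene length, for 28252 of the genes. Strand, and the treatment of reads with several matches, are not given in the sources used here, so that counts of the 39 genes that overlap another gene, and of close paralogues, are uncertain. Members, lists, tests and named genes were chosen with earlier results of these data known. Each library's group and replicate number came from its label. Members were matched by Ensembl identifier to GENCODE release 21 for mouse (GRCm38), for all 73, and promoters to RefSeq (GRCm38.p6), for 60.

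Counts were tested with edgeR 4.0.16 in R 4.3.3 (glmQLFit with robust = TRUE and glmQLFTest, TMM, genes with at least 10 counts in total) in a model of the 12 LCM libraries and a model of the 6 MII libraries, with Benjamini-Hochberg adjustment over all genes. The biological coefficient of variation was 2.02 and 0.726. DESeq2 1.42.0 and limma 3.58.1 on log2(TPM + 1) were alternatives, and the scripts were tested on simulated data. Named genes were those of the study's text, all TOM, ADP/ATP and phosphate carrier genes, the 3 highest of every other list by mean TPM, the 4 with the smallest p in each comparison, any called gene, and paralogue pairs. Their fold changes are given for the comparison that chose them, and levels otherwise. A fold against a group at 0 was computed against 3 counts per library and is a lower bound, and floors and counting intervals cover counting error only. The floor of 3 counts was 0.103 to 0.198 CPM in LCM and 0.301 to 0.409 CPM in MII libraries. Same-numbered libraries did not deviate together (correlations −0.0769 to 0.14), so they were not treated as pairs. No protein sequence was used. Values of 1 gene that the rule on named genes covers are not reported here.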

Additional observations from a re-analysis of the deposited data

How the results depend on the processing

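With DESeq2 in place of edgeR the members called went from 0 to 4 (*in vitro* versus *in vivo*, primordial), 2 (primary), 2 (interaction), 2 (primary versus primordial *in vivo*), 1 (*in vitro*) and 2 (MII). Without the filter on low counts 1 member was called in MII oocytes, *Slc25a10* (edgeR adjusted p = 0.0305, Benjamini-Hochberg). The cause was not tested. No member was called with any library left out (66 comparisons) or with the replicate number as a block, where calls over all genes were 1, 0, 0, 0 and 0 in LCM and 85 in MII comparisons, against 5, 0, 16, 8, 0 and 60. Over all genes DESeq2 called 812, 254, 554, 557, 450 and 351, limma 0 and in MII 29, and edgeR in MII 45 with filterByExpr and 263 with no filter. In LCM comparisons edgeR called 0 with filterByExpr and 0, 0, 1, 0 and 0 with no filter. Leaving out 1 library gave 11 to 378 in MII, the highest without replicate 1 of the *in vivo* group. The size factors of DESeq2 shifted the median of all genes by −0.27 (primary), −0.31 (interaction) and −0.22 (stage *in vitro*). Of 37 fold changes, 348 of 351 values under alternatives kept their direction. The exception was *Mtch1* at the primary stage, at 1.61 and 1.89 by limma with pseudocounts 1 and 0.1 and 1.61 with a minimum mean of 1 TPM. With a library left out 381 of 387 kept it, and *Mtch1* at the primary stage ranged from −1.18 to 0.45, *Timm21* in MII from −0.30 to 0.69 and *Timm8a1* in MII from −0.59 to 0.33. The median number of members detected was 43 (*in vitro* primordial) and 56 (*in vivo* MII) from 1 count up, and 46 and 54 (*in vivo* and *in vitro* MII) above 10 counts. As a share of counts the *in vivo* MII members held 0.190%.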
